A study of Rattus norvegicus with 9 samples.

Results

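Expression of 10 cartilage genes was examined in rat femoral fracture tissue: Sox9, Ihh, Col2a1, Col10a1, Acan, Hapln1, Comp, Matn1, Matn3 and Cnmd. They are the protein-coding rows of the deposited count table that carry these names, 10 of the 35360 genes in the table. They were picked by name, with earlier results of these data known. The series holds 9 poly-A RNA libraries from the middle of the fracture, with 3 libraries in each of its 3 groups. The Gel group received a gel alone and the ALN gel group a gel carrying a bisphosphonate (ALN in the labels). The Mg-ALN gel group received a gel loaded with a metal-organic framework built from magnesium and ALN. The series was designed to ask whether magnesium released by such a bone adhesive counters the fibrosis seen with the bisphosphonate. All 3 groups share the fracture and the gel. The labels used here give no strain, sex, age or time after fracture, and no library of unfractured bone was analysed here.

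A fracture that is not rigidly fixed heals in part through cartilage. Chondrocytes lay down a matrix of type II collagen and aggrecan, enlarge into hypertrophic cells that switch on type X collagen and Indian hedgehog, and the cartilage is then resorbed and replaced by bone. SOX9 drives the early chondrocyte genes, and RUNX2 and its partners take part in the hypertrophic stage. The abundance of these transcripts in a bulk sample reflects both how many chondrocytes it holds and how much of each RNA they carry, and fewer cells of a type and less RNA per cell cannot be told apart.

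For 5 of the 10 genes (Acan, Col10a1, Comp, Hapln1 and Matn3) RefSeq promoter windows of 250 bases before the annotated start were at hand, on build GRCr8. The windows of Hapln1 and Col10a1 are shown because these genes, with Col2a1, were lower in every Mg-ALN gel library than in every ALN gel library. Capitals mark the letters of known short motifs, each searched on both strands. The core recognised by SOX factors is ACAAAG. The core recognised by RUNX factors was searched as ACCACA. The third motif, the TATA box near the start of many genes, was searched as TATAAA. The Col10a1 window lies at chr20:39737286-39737535 on the plus strand and the Hapln1 window at chr2:22366717-22366966 on the plus strand, both written 5′ to 3′ toward the start of the gene.
Col10a1: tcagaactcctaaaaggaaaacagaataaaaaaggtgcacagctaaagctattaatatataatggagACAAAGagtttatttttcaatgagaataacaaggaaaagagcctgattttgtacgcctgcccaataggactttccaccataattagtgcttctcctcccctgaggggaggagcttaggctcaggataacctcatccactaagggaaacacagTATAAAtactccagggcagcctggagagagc
Hapln1: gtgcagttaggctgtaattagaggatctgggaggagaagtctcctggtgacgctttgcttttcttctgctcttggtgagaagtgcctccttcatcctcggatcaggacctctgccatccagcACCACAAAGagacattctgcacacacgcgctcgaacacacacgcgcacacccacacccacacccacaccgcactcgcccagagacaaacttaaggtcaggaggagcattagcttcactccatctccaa
In the Col10a1 window the ACAAAG match spans bases 183 to 178 before the start and the TATAAA match bases 31 to 26. In the Hapln1 window an ACCACA match (bases 128 to 123) overlaps an ACAAAG match (bases 125 to 120). The windows of Acan, Comp and Matn3 hold none of the 3 letter strings. Of 33469 rat promoter windows of this length, 16.3% hold the SOX core, 14.5% the RUNX core and 12.9% the TATA box on either strand, so each is common and a match only describes the letters.

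Total counts per library ran from 13388689 to 18763270, and 15460 genes passed the low-count filter. Mitochondrially encoded transcripts took 4.16% to 39.5% of the counts. The 10 osteoblast markers examined were detected in every library. Skeletal muscle markers differed widely between libraries: the summed level of the 8 that matched was 10620 CPM (counts scaled to a common library size) in Gel library 3, 2408 CPM in ALN gel library 1 and 1415 CPM in ALN gel library 3, against 7.88 to 203 CPM in the other 6 libraries. Of 8 tendon and ligament markers, 4 had their highest count in ALN gel library 3 (Thbs4 with 7004, Tnmd with 351, Kera with 560 and Mkx with 14), and the other 4 (Scx, Egr1, Fmod and Tnc) had it in another library. The labels do not say that the libraries of a group come from separate animals, so p-values measure only the spread between these libraries.

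Cartilage transcripts were scarce in all groups. The 10 genes together made up 0.0192%, 0.00886% and 0.0622% of the counts in Gel libraries 1 to 3, and 0.0129%, 0.0103% and 0.117% in the ALN gel libraries. In the Mg-ALN gel libraries they made up 0.00932%, 0.0125% and 0.00547%. The totals include mitochondrially encoded transcripts, which took 39.5% of the counts in ALN gel library 1 and 31.6% in Mg-ALN gel library 3. The group means were 0.0301% ± 0.0283 (SD, n = 3) for Gel, 0.0468% ± 0.0610 (SD, n = 3) for ALN gel and 0.00911% ± 0.00353 (SD, n = 3) for Mg-ALN gel. Gel library 3 and ALN gel library 3 stood above the rest, and the other 7 libraries overlapped across the groups. Without Gel library 3 the Gel mean was 0.0140%, and without ALN gel library 3 the ALN gel mean was 0.0116%. Between 6 and 9 of the 10 genes had at least 1 count in a library.

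Per length, the deposited FPKM values (fragments per length of the gene and depth of the library) ranked the genes by their mean over the 9 libraries as Comp 25.9, Acan 13.9, Col2a1 11.7, Hapln1 3.30, Sox9 2.63, Col10a1 2.38, Cnmd 1.40, Matn3 1.28, Ihh 0.385 and Matn1 0.0246. The upper places in this order rest on single libraries. The highest Comp value was 197 FPKM, in ALN gel library 3, against a median of 1.97. The highest Col2a1 value was 67.3 FPKM, in Gel library 3, against a median of 4.41. Acan had a median of 9.47 FPKM, above the medians of Comp and Col2a1. Neighbours in the order, such as Sox9 and Col10a1 or Cnmd and Matn3, did not differ beyond their spread over the libraries.

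**Figure D1:**
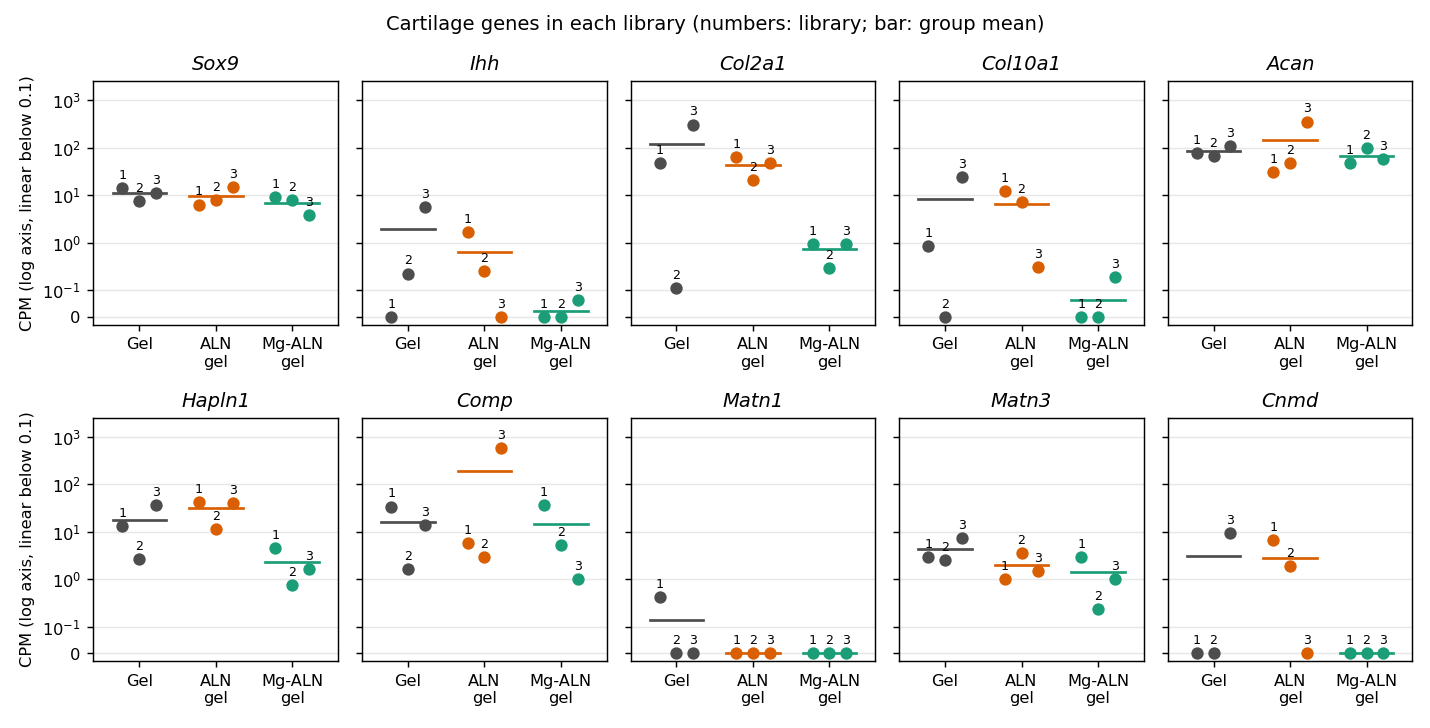
Level of each cartilage gene in each library. The vertical axis is CPM on a logarithmic axis that turns linear below 0.1 so that 0 can be drawn; points are libraries, marked with their number, and bars are the means of the 3 libraries of a group. Col2a1, Col10a1 and Hapln1 lie lower in all 3 Mg-ALN gel libraries than in any ALN gel library, whereas Gel library 2 lies within or below the Mg-ALN gel range for these genes.

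Sox9 encodes the transcription factor that sets up and maintains the chondrocyte programme (ENSRNOG00000002607, chromosome 10, 101288489 to 101293379, plus strand, as in the deposited table). The Gel libraries held 14.0, 7.56 and 11.2 CPM of it, the ALN gel libraries 6.36, 7.78 and 14.7 CPM, and the Mg-ALN gel libraries 9.22, 7.74 and 3.75 CPM. The 3 groups overlapped, with means of 10.9 ± 3.24, 9.62 ± 4.46 and 6.90 ± 2.83 CPM (SD, n = 3 each). The log2 fold change (± SE) was −0.18 ± 0.46 for ALN gel against Gel, −0.48 ± 0.46 for Mg-ALN gel against ALN gel and −0.66 ± 0.46 for Mg-ALN gel against Gel. The edgeR quasi-likelihood test gave adjusted p-values of 0.957, 0.763 and 0.637. Leaving out single libraries moved the second fold change from −0.74 (without Mg-ALN gel library 1) to −0.013 (without ALN gel library 3), and the third from −0.92 (without Mg-ALN gel library 1) to −0.37 (without Mg-ALN gel library 3).

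Col2a1 encodes the chain of type II collagen, the main fibrillar collagen of cartilage (ENSRNOG00000058560, chromosome 7, 139455242 to 139483997, minus strand). It had counts of 658, 2 and 4864 in the Gel libraries, 801, 325 and 783 in those with ALN, and 12, 5 and 15 in those with Mg-ALN. Scaled, these were 46.8, 0.113 and 305 CPM, then 62.1, 20.4 and 47.6 CPM, then 0.946, 0.298 and 0.953 CPM. Each Mg-ALN gel library lay below each ALN gel library. The Gel group spanned the whole range: library 3 held the highest value of all 9 and library 2 the lowest. The log2 fold change was −5.89 ± 1.84 for Mg-ALN gel against ALN gel and −7.33 ± 1.94 against Gel. The latter was −4.98 without Gel library 3. In the edgeR test the unadjusted p-values were 0.0107 and 0.00433 and the adjusted ones 0.496 and 0.530, so neither passed the threshold of 0.05. DESeq2 called both, with adjusted p-values of 0.0333 and 0.00564, and limma-voom called neither. For ALN gel against Gel the log2 fold change was −1.44 ± 1.45 (edgeR adjusted p = 0.853), and it turned to 0.87 without Gel library 3.

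Acan encodes aggrecan, the large proteoglycan that holds water in cartilage (ENSRNOG00000028992, chromosome 1, 140762758 to 140824441, plus strand). It was measured at 78.6, 65.4 and 109 CPM in Gel, 30.7, 46.9 and 353 CPM in ALN gel, and 46.7, 98.5 and 56.6 CPM in Mg-ALN gel. The lowest library held 396 counts of it, and all 3 groups overlapped. The Mg-ALN gel group did not stand apart from ALN gel as it did for Col2a1. For Mg-ALN gel the log2 fold change was −1.09 ± 0.80 against ALN gel and −0.32 ± 0.80 against Gel (edgeR adjusted p = 0.693 and 0.907). The first value turned to 0.81 without ALN gel library 3. For ALN gel against Gel it was 0.77 ± 0.80 (edgeR adjusted p = 0.859), and −1.17 without that library.

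Hapln1 encodes the link protein that ties aggrecan to hyaluronan (ENSRNOG00000032002, chromosome 2, 18354542 to 18419071, plus strand). It was measured at 13.5, 2.71 and 37.2 CPM in Gel, 42.2, 11.6 and 41.0 CPM in ALN gel, and 4.57, 0.774 and 1.65 CPM in Mg-ALN gel. The highest Mg-ALN gel library lay below the lowest ALN gel library, while 1 of the 3 Gel libraries, library 2, lay within the Mg-ALN gel range. The log2 fold change was −3.77 ± 1.02 for Mg-ALN gel against ALN gel and −2.95 ± 0.99 against Gel. Unadjusted edgeR p-values were 0.00481 and 0.0152 and adjusted ones 0.496 and 0.530. DESeq2 called the first (adjusted p = 0.00912) and not the second (adjusted p = 0.112). Without Gel library 3 the second was −1.79. For ALN gel against Gel the log2 fold change was 0.82 ± 0.90 (edgeR adjusted p = 0.866), and leaving out single libraries moved it from 0.24 to 1.93.

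Comp encodes the cartilage oligomeric matrix protein, which tendon and ligament also make (ENSRNOG00000048472, chromosome 16, 20798437 to 20807070, minus strand). It was measured at 34.1, 1.64 and 13.7 CPM in Gel, 5.82, 3.01 and 573 CPM in ALN gel, and 36.6, 5.24 and 1.02 CPM in Mg-ALN gel. A single library, ALN gel library 3, lay far above the others, and it is the one with the highest counts of 4 of the 8 tendon and ligament markers. Its summed level of the 8 tendon and ligament markers was 2080 CPM, against 882 and 721 CPM in the other ALN gel libraries, 1047 to 2127 CPM in Gel and 1390 to 1676 CPM in Mg-ALN gel. The part of tendon or ligament tissue in the Comp value was not tested. The log2 fold change was 3.56 ± 2.02 for ALN gel against Gel (edgeR adjusted p = 0.688), and it was −1.93 without ALN gel library 3. For Mg-ALN gel against ALN gel it was −3.77 ± 2.04 (edgeR adjusted p = 0.603), and 1.73 without that library. Against Gel it was −0.21 ± 1.84 (edgeR adjusted p = 0.976), and 0.89 without Gel library 1.

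The matrilins are adaptor proteins of the cartilage matrix. Matn3 (ENSRNOG00000056141, chromosome 6, 34071428 to 34091048, plus strand) had counts of 42, 46 and 117 in the Gel libraries, 13, 56 and 25 in those with ALN, and 38, 4 and 16 in those with Mg-ALN. The 3 groups overlapped. Its log2 fold change was −1.09 ± 0.88 for ALN gel against Gel, −0.52 ± 0.89 for Mg-ALN gel against ALN gel and −1.61 ± 0.90 for Mg-ALN gel against Gel (edgeR adjusted p = 0.798, 0.878 and 0.575). The middle value turned to 0.21 without ALN gel library 2. Matn1 (ENSRNOG00000010932, chromosome 5, 149077412 to 149086957, plus strand) had 6 counts in Gel library 1 and 0 in the other 8 libraries. A count of 0 allows up to 0.169 to 0.237 CPM in a library (3 counts of its scaled size, counting error only). Matn1 failed the low-count filter and was not tested.

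The genes of the hypertrophic stage and of chondromodulin were found in some libraries of Gel and ALN gel and were at or near 0 in Mg-ALN gel. Col10a1 encodes type X collagen, the collagen of hypertrophic chondrocytes (ENSRNOG00000051399, chromosome 20, 41184287 to 41189633, plus strand). It had counts of 12, 0 and 376 in the Gel libraries, 159, 114 and 5 in those with ALN, and 0, 0 and 3 in those with Mg-ALN. The ALN gel and Mg-ALN gel libraries did not overlap, although ALN gel library 3 at 0.304 CPM came close to Mg-ALN gel library 3 at 0.191 CPM. Over the group, ALN gel held 92.5 times the level of Mg-ALN gel (exact 95% counting interval 31.3 to 451) and Gel held 122 times (41.6 to 597). These intervals cover counting error only, and 376 of the 388 Gel counts come from library 3, without which the second ratio was 5.69 (1.54 to 31.4). It was 195 without Gel library 2, and the first was 55.4 or 143 when library 1 or library 3 of ALN gel was left out. The fitted log2 fold changes were −6.48 ± 2.43 against ALN gel and −6.79 ± 2.44 against Gel, with unadjusted edgeR p-values of 0.0255 and 0.0214 and adjusted ones of 0.502 and 0.530. Without Gel library 3 the second was −2.52. DESeq2 called neither (adjusted p = 0.200 and 0.221). For ALN gel against Gel the log2 fold change was −0.31 ± 1.72 (edgeR adjusted p = 0.984), and 3.94 without Gel library 3.

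Ihh encodes Indian hedgehog, the signal that prehypertrophic chondrocytes send to neighbouring cells (ENSRNOG00000018059, chromosome 9, 82208223 to 82214440, minus strand). It had counts of 0, 4 and 91 in the Gel libraries, 22, 4 and 0 in those with ALN, and 0, 0 and 1 in those with Mg-ALN. The groups overlapped, since Gel and ALN gel each hold a library at 0. Over the group, ALN gel held 26.0 times the level of Mg-ALN gel (exact 95% counting interval 4.27 to 1064) and Gel held 90.0 times (15.8 to 3592). Both rest on single libraries: the first was 5.58 (0.553 to 275) without ALN gel library 1, and the second 5.69 (0.563 to 280) without Gel library 3. Ihh failed the low-count filter. In the fit with no filter its unadjusted edgeR p-value was 0.0749 against ALN gel and 0.0218 against Gel.

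Cnmd encodes chondromodulin, which keeps blood vessels out of cartilage (ENSRNOG00000012821, chromosome 15, 61923299 to 61947764, minus strand). It had counts of 0, 0 and 150 in the Gel libraries, 86, 30 and 0 in those with ALN, and 0 in each Mg-ALN gel library. The 3 libraries with counts are those with the highest Col10a1. The groups overlapped, since ALN gel library 3 and Gel libraries 1 and 2 were at 0 as well. With a floor of 3 counts over the group, pooled Cnmd in the Mg-ALN gel group was at least 38.6-fold lower than with ALN gel and at least 47.4-fold lower than with Gel. These bounds cover counting error only. The first bound was 14.0 or 60.7 when library 1 or library 3 of ALN gel was left out, and the second was 75.4 without Gel library 2. Without Gel library 3 the Gel group is at 0 as well, and no fold can be given. The edgeR adjusted p-values were 0.553 against ALN gel and 0.531 against Gel. DESeq2 called both (adjusted p = 3.176e-05 and 8.048e-05), and limma-voom called neither. The joint DESeq2 test among the 3 groups did not call Cnmd (adjusted p = 0.663).

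Over the whole table, no gene passed the edgeR test at an adjusted p under 0.05 in any comparison (0.0% of 15460 genes for ALN gel against Gel, 0.0% for Mg-ALN gel against ALN gel, 0.0% for Mg-ALN gel against Gel and 0.0% among the 3 groups), and so none of the 8 cartilage genes tested did. At an unadjusted p under 0.05 there were 1268, 1421 and 1439 genes in the first 3 of these. DESeq2 called 133, 184 and 51 genes and limma-voom 263, 2 and 0. The common biological coefficient of variation of the fit was 51.4%, which limits what 3 libraries a group can show.

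In ALN gel against Gel, 5 of the 8 tested cartilage genes had a negative and 3 a positive log2 fold change, beside 50.2% negative among all genes tested. Their median was −0.16, beside −0.00 over all genes tested, and none of the 8 had an unadjusted p under 0.05 or groups that did not overlap. With no low-count filter 7 of the 10 were negative, with a median of −0.32. The direction was not stable: the median over the 8 was 1.42 without Gel library 3, 0.66 with the replicate number as a block, 1.07 with limma-voom, and 0.14 and 0.98 with limma on log2(FPKM + 1) and log2(FPKM + 0.1).

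In Mg-ALN gel against ALN gel, the transcripts of type II collagen, type X collagen and link protein, found in each ALN gel library, were lower in each Mg-ALN gel library, while Sox9 and Acan overlapped between the groups. Each of the 8 tested genes had a negative log2 fold change, beside 53.6% of all genes tested, with a median of −3.77 beside −0.04 over all genes. With no low-count filter, 9 of the 10 were negative and Matn1, at 0 in both groups, gave no direction; the median of the 10 was −3.73, beside −0.01 over all genes with a count. Cnmd and Col10a1 passed the filter only through Gel and ALN gel libraries, so the choice of genes tested fixed their direction in part. Col2a1, with 12, 5 and 15 counts in the Mg-ALN gel libraries, would not have passed on these alone. Its direction was thus fixed in part too. Hapln1, with 58, 13 and 26 counts there, would have passed. Of the 8, Col2a1 and Hapln1 had groups that did not overlap, beside 9.77% of all genes tested that were lower in this way. Both also had an unadjusted edgeR p under 0.05, beside 5.43% of all genes in the lower direction. Col10a1 had no overlap and an unadjusted edgeR p under 0.05 too. It is not counted here because it passed the filter only through Gel and ALN gel libraries. DESeq2 called Col2a1 and Hapln1 lower, beside 0.836% of the genes it gave an adjusted p. Its call of Cnmd, given above, is not counted here, since that gene was tested only through the libraries where it is high. Comp had no DESeq2 adjusted p.

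In Mg-ALN gel against Gel, each of the 8 tested genes had a negative value, beside 52.2% of all genes tested, with a median of −2.28 beside −0.03 over all genes. With no low-count filter, 10 of the 10 were negative and their median was −3.58, beside −0.07 over all genes with a count. Matn1 and Cnmd were at 0 in each Mg-ALN gel library, so they could not come out positive. Ihh and Col10a1 held at most 3 counts in each of these libraries, so their direction was fixed in part as well. The same holds for Col2a1, which passed the filter partly through the other groups. This comparison and the one before it share the Mg-ALN gel libraries. The median over the 8 was −0.82 without Gel library 3, −3.48 without Gel library 2 and −3.87 without Mg-ALN gel library 1. No gene of the 8 had groups that did not overlap, beside 8.56% of all genes tested that were lower in this way. Gel library 2 was as low as the Mg-ALN gel libraries for Col2a1, Col10a1, Hapln1 and Cnmd. Unadjusted edgeR p-values were under 0.05 for Col2a1 and Hapln1, beside 3.88% of all genes in the lower direction. That of Col10a1 was under 0.05 too and is again not counted. DESeq2 called Col2a1, beside 0.176% of genes in the lower direction, and its call of Cnmd is again not counted. Among the 3 groups, the joint edgeR test gave Col2a1 an unadjusted p of 0.0135 and Hapln1 of 0.0153, beside 9.29% of all genes under 0.05, and both had an adjusted p of 0.526. The joint DESeq2 test called none of the cartilage genes to which it gave an adjusted p. Its values were 0.0886 for Col2a1, 0.0532 for Hapln1 and 0.663 for Cnmd.

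**Figure D2:**
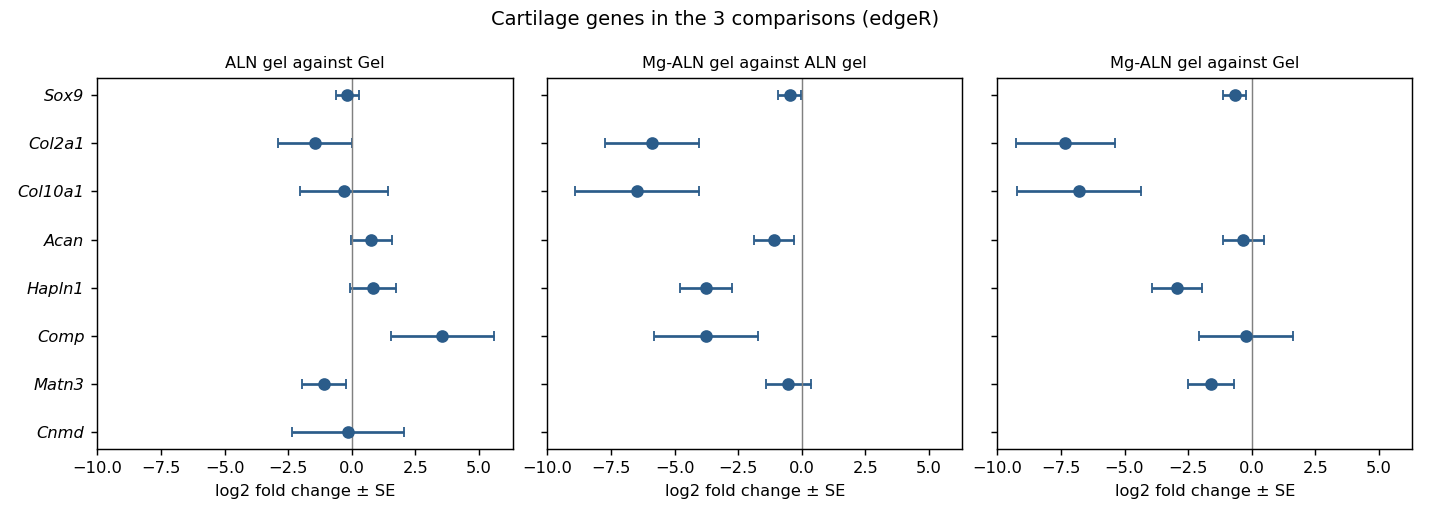
Log2 fold changes (± SE, edgeR) of the 8 tested cartilage genes in the 3 comparisons, each fitted over all 9 libraries. Cnmd is left out of both panels with Mg-ALN gel because that group is at 0. Col2a1, Col10a1 and Hapln1 lie farthest below 0 in Mg-ALN gel against Gel, while Sox9, Acan and Comp lie within 1.5 SE of 0 there.

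The mix of cartilage transcripts also differed between libraries. As shares of the summed FPKM of the 10 genes, Col2a1 made up 54.8% in Gel library 3 and 32.3% in ALN gel library 1. In Mg-ALN gel it made up 0.832%, 0.352% and 1.95%, and in Gel library 2 it made up 0.176%. Acan made up 66.5% in Gel library 2, 76.1% in Mg-ALN gel library 2 and 75.7% in Mg-ALN gel library 3. Comp led in ALN gel library 3 with 73.3% and in Mg-ALN gel library 1 with 52.0%. The libraries with a low Col2a1 share thus held mostly Acan or Comp, transcripts that also occur outside hyaline cartilage.

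**Figure D3:**
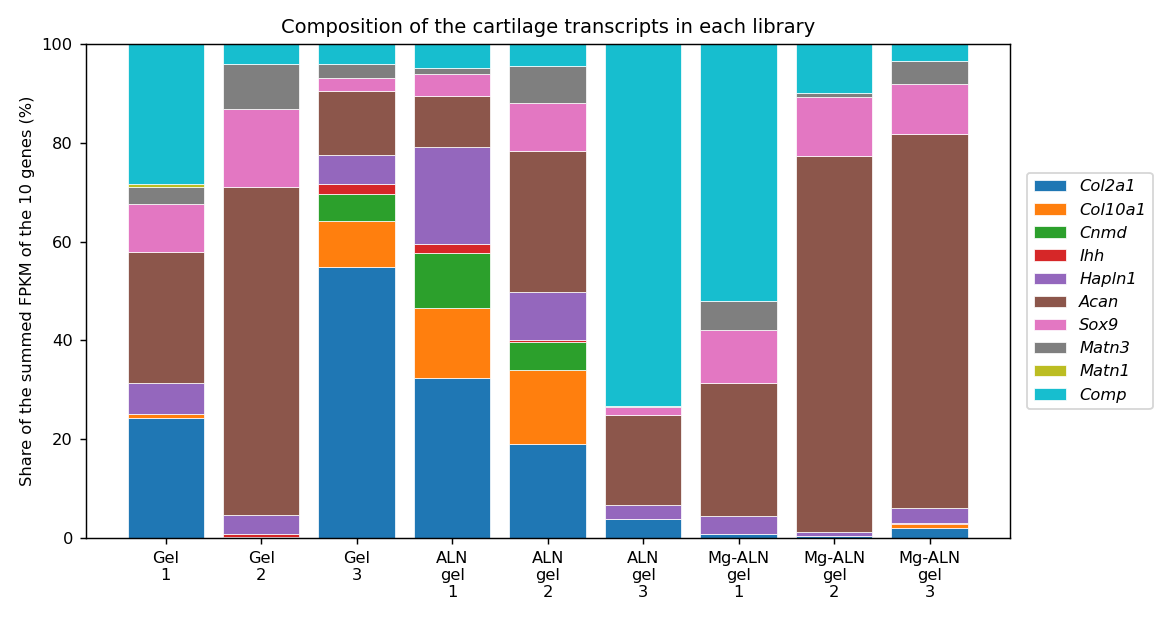
Share of each gene in the summed FPKM of the 10 cartilage genes, in percent, with 1 stacked bar per library. Col2a1, Col10a1, Cnmd and Hapln1 together fill most of the bars of Gel library 3 and ALN gel library 1, and Acan and Comp fill most of those of Gel library 2, ALN gel library 3 and the 3 Mg-ALN gel libraries.

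Within libraries, the ratio of Col10a1 to Col2a1 counts compares the hypertrophic collagen with the general cartilage collagen. It does not depend on library size, except through the 0.5 added to both counts, which matters where counts are few. The log2 ratio, with 0.5 added to both counts, was −5.72, −2.32 and −3.69 in the Gel libraries, −2.33, −1.51 and −7.15 in those with ALN, and −4.64, −3.46 and −2.15 in those with Mg-ALN. Col10a1 was at 0 in Gel library 2 and Mg-ALN gel libraries 1 and 2, so the added 0.5 set its side of these ratios. The groups overlapped throughout. Their means differed by 0.25 for ALN gel against Gel, 0.25 for Mg-ALN gel against ALN gel and 0.49 for Mg-ALN gel against Gel. The exact two-sided permutation tests gave p = 1.0, 0.9 and 0.7, and 0.943 among the 3 groups, all 1.0 after adjustment over the 4 tests. The lowest p that 3 libraries against 3 allow is 0.1. Gel library 2 and the Mg-ALN gel libraries held at most 3 Col10a1 and 15 Col2a1 counts, so their ratios are poorly determined, and leaving out single libraries turned the direction of each difference (−0.83 to 1.99, −1.50 to 1.33 and −0.41 to 1.29).

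Across the 9 libraries, some pairs of cartilage genes varied together, given here as descriptions of log2 CPM over libraries that share groups and depth. A division of the genes into sets was not tested. Col2a1 and Hapln1 had a Pearson r of 0.911, Col2a1 and Col10a1 of 0.879, and Cnmd of 0.898 both with Col10a1 and with Ihh. Sox9 followed Comp (r = 0.827) and Acan (r = 0.616) more closely than Hapln1 (r = 0.532), Col2a1 (r = 0.491) or Col10a1 (r = 0.111). Acan and Cnmd had an r of −0.317, and Ihh and Comp of −0.336. Many of the values behind Col10a1, Cnmd and Ihh are 0.

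A cartilage score, the mean over the members of log2 CPM centred on each gene, was 0.60, −1.60 and 2.68 in the Gel libraries, 1.49, 0.79 and 0.77 in those with ALN, and −1.10, −2.05 and −1.58 in those with Mg-ALN. Of 13100 genes outside the members with a mean of at least 1 CPM, the 10 that followed it most closely were Clec3a (r = 0.945), Tecr (0.934), Ppp1r1a (0.926), Col9a3 (0.917), Myod1 (0.910), Myo18b (0.907), Papln (0.896), Spart (0.894), Igfn1 (0.893) and Stx17 (0.890). Clec3a encodes a cartilage-derived lectin and Col9a3 a chain of type IX collagen, which coats type II collagen fibrils. Clec3a had counts of 99, 0 and 476 in the Gel libraries, 175, 51 and 384 in those with ALN, and 0 in each Mg-ALN gel library. Myod1 and Myo18b are muscle genes. Igfn1 had its highest counts, 309 and 281, in Gel library 3 and ALN gel library 1, the libraries highest in muscle markers. The 3 genes closest to Col10a1 were Col9a1 (r = 0.952), Snorc (0.936) and Col9a3 (0.927). Col9a1, another chain of type IX collagen, had counts of 10, 0 and 231 in the Gel libraries, 151, 36 and 1 in those with ALN, and 0, 2 and 4 in those with Mg-ALN. Snorc, a small membrane proteoglycan of chondrocytes, had counts of 3, 0 and 67 in the Gel libraries, 53, 26 and 6 in those with ALN, and 0, 3 and 4 in those with Mg-ALN.

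**Figure D4:**
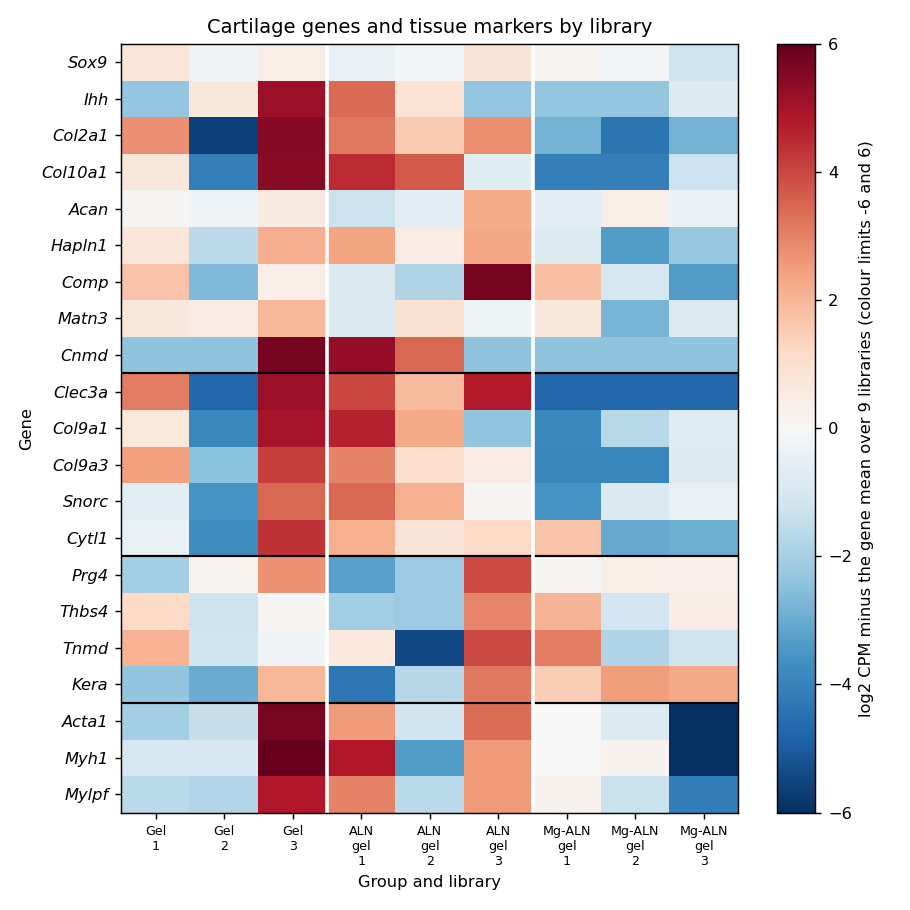
Log2 CPM minus the mean of each gene over the 9 libraries, with colour limits of −6 and 6. Blocks from top to bottom are 9 cartilage genes (Matn1 is left out), 5 other cartilage matrix genes, Prg4 with 3 tendon genes, and 3 skeletal muscle genes, with Cytl1, the tendon genes and the muscle genes shown chosen after their values were seen. Gel library 3 and ALN gel library 1 are high for Col2a1, Col10a1, Cnmd and the type IX collagen genes and also for the muscle genes.

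Muscle markers moved with the cartilage genes over part of the libraries. Gel library 3 and ALN gel library 1, with the highest Col2a1, Col10a1, Ihh and Cnmd, were also the 2 libraries highest in muscle markers, and Mg-ALN gel library 3 was the lowest, with 4 of the 8 markers at 0. ALN gel library 2, with 325 Col2a1 and 114 Col10a1 counts, held 58.4 CPM of muscle markers, less than Mg-ALN gel libraries 1 and 2 with 203 and 133 CPM. In a fit with the muscle level as a covariate, chosen after seeing the data, the log2 fold change for Mg-ALN gel against ALN gel was −4.42 for Col2a1, −2.64 for Hapln1 and −5.28 for Col10a1 (edgeR adjusted p = 0.587, 0.501 and 0.643). For Mg-ALN gel against Gel it was −5.22, −1.79 and −3.89 (edgeR adjusted p = 0.647, 0.647 and 0.703). Without the 3 libraries richest in muscle markers (Gel library 3 and ALN gel libraries 1 and 3), only ALN gel library 2 stands for its group and is assumed to vary like the others. The values against it were then −4.79, −2.30 and −6.61 (edgeR adjusted p = 1.0 for each).

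Other genes of the cartilage programme were examined by lists, and in no list did a gene pass the edgeR test after adjustment. Among all genes tested, 50.2% were negative in ALN gel against Gel (median −0.0014). In Mg-ALN gel, 53.6% were negative against ALN gel (median −0.04) and 52.2% against Gel (median −0.03). Every list below is to be read beside these values. Of 21 tested genes of cartilage matrix outside the members, 15 were negative in Mg-ALN gel against Gel (median −0.36) and 10 in Mg-ALN gel against ALN gel (median 0.00), so the list as a whole did not share the low values of Col2a1 and Col10a1. The list includes Clec3a, Col9a1, Col9a3 and Snorc, named above for their likeness to the cartilage score or Col10a1. In Mg-ALN gel against ALN gel, Col9a1, Col9a3 and Snorc had log2 fold changes of −5.09, −4.26 and −3.70. Their edgeR adjusted p-values were 0.546, 0.513 and 0.570. These genes were picked for following members that are low in Mg-ALN gel. They held at most 4 counts in each Mg-ALN gel library, so their direction was fixed in part. Clec3a was at 0 in each Mg-ALN gel library, and 11 of the 21 genes were positive in that comparison. The 3 most abundant genes of the list by FPKM were Fmod (89.4), Col11a1 (85.1) and Prg4 (40.6), encoding fibromodulin, a chain of type XI collagen and lubricin. Col11a1, which osteoblasts also express, had a log2 fold change of −1.51 ± 0.41 for ALN gel against Gel, with no overlap (edgeR adjusted p = 0.528), and 0.61 ± 0.40 for Mg-ALN gel against ALN gel. Fmod and Prg4 overlapped between groups in each comparison.

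Of 13 tested chondrocyte transcription factors, 13 were negative in Mg-ALN gel against ALN gel (median −0.67), beside 53.6% of all genes tested. In Mg-ALN gel against Gel 11 were negative (median −0.77), beside 52.2%. In ALN gel against Gel 8 were positive (median 0.09). The 3 most abundant were Runx2, Shox2 and Mef2c, the first and last of which act in hypertrophy and also outside cartilage. Mef2c had counts of 2238, 757 and 1779 in the Gel libraries, 1635, 1050 and 1769 in those with ALN, and 663, 924 and 781 in those with Mg-ALN. Of the 13, 4 were lower in every Mg-ALN gel library than in every ALN gel library, beside 9.77% of all genes tested. These 3 were among them, with log2 fold changes of −0.74 ± 0.34 (Runx2), −0.52 ± 0.31 (Shox2) and −0.94 ± 0.43 (Mef2c) and edgeR adjusted p-values of 0.548, 0.628 and 0.553.

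Indian hedgehog acts through PTCH1 and SMO and controls hypertrophy together with the receptor of parathyroid hormone-related protein. Of 16 tested genes of this signalling, 15 were negative in Mg-ALN gel against Gel (median −0.43), beside 52.2% of all genes tested. In Mg-ALN gel against ALN gel 11 were negative (median −0.27), beside 53.6%. In ALN gel against Gel 13 were negative (median −0.43), beside 50.2%. Gas1, a hedgehog co-receptor and the most abundant of them, had counts of 4012, 3192 and 2190 in the Gel libraries, 1011, 2362 and 2277 in those with ALN, and 813, 1262 and 1483 in those with Mg-ALN. Its log2 fold change in Mg-ALN gel against Gel was −1.37 ± 0.34, with no overlap (edgeR unadjusted p = 0.00314, adjusted p = 0.530). Pth1r and Smo, the next 2, had values of −0.93 ± 0.64 and −0.29 ± 0.25 there and overlapped.

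Of 20 tested genes of chondroitin sulfate synthesis, which makes the side chains of aggrecan, 12 were negative in Mg-ALN gel against Gel (median −0.10). The 3 most abundant, Chpf, B3gat3 and Chst12, had log2 fold changes between 0.25 and 0.28 there. Of 18 tested growth factor genes that act on chondrocytes, 9 were negative in the same comparison (median −0.01). Among the most abundant of these, Tgfb2 and Cdkn1c overlapped in each comparison. Wnt5a had a log2 fold change of 1.96 ± 0.64 for Mg-ALN gel against ALN gel, where the groups also overlapped (edgeR adjusted p = 0.496). Of 20 tested genes of hypertrophy, mineralization and cartilage resorption, 14 were negative in Mg-ALN gel against Gel (median −0.19) and 13 in Mg-ALN gel against ALN gel (median −0.40). The 3 most abundant, Spp1, Mmp13 and Mmp9, are also made by osteoblasts or osteoclasts. Mmp9 had a log2 fold change of 2.39 ± 0.78 for ALN gel against Gel and −1.91 ± 0.77 for Mg-ALN gel against ALN gel, without overlap in either (edgeR adjusted p = 0.536 and 0.511). Mmp13 had 0.96 ± 0.47 and −1.13 ± 0.47, also without overlap (edgeR adjusted p = 0.649 and 0.523). The summed osteoclast markers, which include Mmp9, were 2158 to 17980 CPM in Gel, 21280 to 31080 CPM in ALN gel and 3675 to 12240 CPM in Mg-ALN gel, and their part in the Mmp9 and Mmp13 values was not tested.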

How the data were processed

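Read counts per gene, deposited by the authors as whole numbers, were the main values. The authors also deposited FPKM values, which equal count over gene length times 1 constant per library (0.804 to 1.19 times the column total), and a gene length per row. Tools listed, without roles, in the submitters' processing notes are featureCounts 1.5.0-p3, HISAT2 2.0.5, edgeR 3.22.5, DESeq2 1.20.0, StringTie 1.3.3b and fastp. Per the labels' protocols, poly-A RNA was used and no marking of strand is mentioned, so genes that overlap another gene are uncertain. Coordinates are those of the deposited table, whose build is not given in the sources used here.

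Groups and replicate numbers came from the sample titles. Libraries differed pairwise by a chi-square per degree of freedom of at least 72.3, so all 9 were kept. In R 4.3.3, edgeR 4.0.16 fitted 1 coefficient per group over all 9 libraries (filterByExpr, TMM, quasi-likelihood, two-sided, Benjamini-Hochberg over all genes tested, threshold 0.05), after being tested on simulated data. CPM used TMM-scaled library sizes, and log2 CPM a prior count of 0.5. SE is the log2 fold change over the square root of F. The median was planned over all members. Because 2 failed the filter it covers the 8 tested, with the value for 10 from the unfiltered fit. Alternatives used limma 3.58.1 (voom, and FPKM with pseudocounts of 1 and 0.1), DESeq2 1.42.0, other scalings, no filter, covariates and left-out libraries. The muscle covariate and the removal of the 3 muscle-rich libraries were chosen after seeing the data.

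The 10 members, the 6 related lists and the marker lists were chosen with earlier results of these data known. Of 230 list entries 224 matched a gene name. Named genes were the members, the 3 most abundant by FPKM of each related list (more only where a gene passed the test), the 10 genes closest to the cartilage score and the 3 closest to Col10a1. Promoters came from RefSeq (GRCr8).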

Additional observations from a re-analysis of the deposited data

How the results depend on the processing

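The groups share replicate numbers, but same-numbered libraries deviated together only between Gel and ALN gel (r = 0.341, 0.419 and 0.226; for Mg-ALN gel, 0.13, −0.12 and −0.127 with ALN gel and −0.0767, −0.0452 and −0.199 with Gel), so over the 9 libraries the numbers were not taken as pairs. A fit with the replicate number as a block called no cartilage gene. For ALN gel against Gel it turned the members' median to 0.66, Col2a1 to 0.14, Col10a1 to 3.05 and Cnmd to 3.76, and for Mg-ALN gel against Gel it turned Comp to 0.61.

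DESeq2 called 133 genes in ALN gel against Gel and limma-voom 263. In the comparisons of Mg-ALN gel they called 184 and 2 against ALN gel and 51 and 0 against Gel, and among the 3 groups 247 and 28, where edgeR called 0. Of 24 fold changes of single members, 12 never took the opposite direction under the alternatives run, and of 524 such values 45 did. The median for ALN gel against Gel turned to 1.07 (voom), 0.14 (FPKM + 1), 0.98 (FPKM + 0.1), 0.73 (muscle covariate) and 0.056 (3 muscle-rich libraries left out). The median for Mg-ALN gel against ALN gel was −1.36 with FPKM + 1, −2.45 with FPKM + 0.1, −2.41 with the muscle covariate and −1.80 without the muscle-rich libraries, and that against Gel was −0.94 with FPKM + 1 and −0.83 without those libraries. Fitting only the 2 groups compared gave −2.43 and −1.16, over 6 members, since Col10a1 and Cnmd then failed the filter. The Mg-ALN gel share was 0.00259% of summed FPKM, a different quantity from a share of counts.

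Single genes turned direction as follows. With voom, ALN gel against Gel gave Col2a1 2.42, Col10a1 2.65, Acan −0.24 and Cnmd 1.45, and Mg-ALN gel against ALN gel gave Acan 0.039. With FPKM + 1, ALN gel against Gel gave Col2a1 0.040, Col10a1 0.32, Acan −0.027 and Cnmd 0.24, and with FPKM + 0.1 it gave 0.94, 1.03, −0.080 and 1.09. The mitochondrial covariate gave Sox9 0.059 (ALN gel against Gel) and Acan 0.29 (Mg-ALN gel against Gel). The muscle covariate gave Col10a1 1.38 and Cnmd 2.81 (ALN gel against Gel) and Acan 0.064 (Mg-ALN gel against Gel). Without the muscle-rich libraries, ALN gel against Gel gave Col10a1 4.07, Acan −0.64, Comp −2.56, Matn3 0.30 and Cnmd 7.86, and Mg-ALN gel against ALN gel gave Acan 0.52 and Comp 2.26. The cause was not tested.

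Leaving out 1 library at a time gave these ranges. Calls went from 0 to 1 in ALN gel against Gel and among the 3 groups (without ALN gel library 3). The medians ran from −0.98 to 1.42 in ALN gel against Gel and from −3.87 to −0.82 in Mg-ALN gel against Gel. In ALN gel against Gel, Sox9 ran from −0.67 to 0.044, Col2a1 from −2.11 to 0.87, Col10a1 from −1.12 to 3.94, Acan from −1.17 to 1.25, Comp from −1.93 to 4.67 and Cnmd from −1.73 to 8.43. In Mg-ALN gel against ALN gel, Acan ran from −1.57 to 0.81, Comp from −5.95 to 1.73 and Matn3 from −1.68 to 0.21, and Comp against Gel ran from −2.38 to 0.89. The differences of the Col10a1 to Col2a1 ratio ran from −0.83 to 1.99, from −1.50 to 1.33 and from −0.41 to 1.29. Fitted Cnmd values against a group with all libraries at 0 depend on the prior count. Depth limits Ihh, Matn1, Cnmd and Col10a1, which hold at most 3 counts in each Mg-ALN gel library.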
